A study of Mus musculus with 17 samples.

Results

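The genes described here encode the proteins of the mitochondrial ribosome whose symbols begin with Mrpl (large subunit) or Mrps (small subunit) followed by a digit. Each was represented by the probe set that names that gene alone and has the highest mean log2 intensity over all arrays. There were 76 such genes, 47 Mrpl and 29 Mrps, among 18194 genes with a single-gene probe set on a mouse Affymetrix expression array. All 76 were measured above the intensity floor on at least 1 array, so all were among the 16785 genes tested. Mrpl30 and Mrpl53 were named only on probe sets shared with other genes and are not included.

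The study measured RNA from sorted hematopoietic stem cells (HSCs), the rare bone marrow cells that renew the blood, and its title places the question in the part that C/EBPa, a myeloid transcription factor, plays in the resting state of adult HSCs. Fetal liver HSCs were taken at E15.5 (n = 3), and adult HSCs at day 7 (control n = 3, KO n = 3) or day 21 (control n = 4, KO n = 4) after pIpC. All adult groups, controls included, had received pIpC, an interferon-inducing RNA analogue with which inducible Cre alleles are often activated. The labels name no Cre driver, and no pIpC for the fetal group. Sorting used lin-, Sca-1+, c-Kit+, CD150+ and CD48- gates, with low Mac-1 in addition for fetal liver. The adult controls are given as wild type. The sample titles name a C/EBPa KO, whereas a Pu.1 knock-in is what their genotype field and the series' design statement give, so the labels conflict. Fetal and adult HSCs differed in age, organ and pIpC exposure together, and these cannot be told apart. Whether each replicate was a separate animal or a pool is not labelled, and p-values cover only the spread between these samples, which may be technical.

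Mitochondria keep a ribosome of their own, which translates the few proteins encoded by mitochondrial DNA, all of them core subunits of the respiratory chain complexes and ATP synthase. Its ribosomal RNAs come from mitochondrial DNA, while every one of its proteins is encoded in the nucleus, made in the cytosol and imported. Some of these proteins descend from bacterial ribosomal proteins and others occur only in mitochondria. Quiescent adult HSCs are known for low mitochondrial respiration, and fetal liver HSCs divide and respire more.

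Cebpa, the gene for C/EBPa, was checked against the titles first. Its intensity was 136, 141 and 315 in control and 32.0, 31.0 and 20.7 in KO at day 7. At day 21 it was 275, 115, 115 and 532 in control and 26.7, 29.9, 25.0 and 39.8 in KO. Every array titled KO lay below every adult control array. On the 3 fetal liver arrays Cebpa stood at 40.4, 30.2 and 81.0. Spi1, the gene for PU.1, was 438, 219 and 280 in control and 347, 460 and 338 in KO at day 7. At day 21 it was 334, 364, 126 and 623 in control and 396, 245, 393 and 231 in KO, and the groups overlapped on both days. In fetal liver Spi1 stood at 237, 248 and 400.

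The sorted cells carried HSC markers in every group, with a mean over 6 measured markers of 9.32 on the log2 scale in fetal liver, 9.92 and 9.56 in control and KO at day 7, and 9.73 and 9.37 at day 21. On both days the KO mean lay below the control mean, with overlapping arrays. Ly6a, which encodes Sca-1, had no single-gene probe set here. The lowest deposited intensity was 16, and 20.4% to 25.2% of the probe sets of an array lay at this floor. Among the 76 genes, Mrpl10 was at the floor on 1 array and Mrpl44 on 4, and no other member reached it.

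The mean level of the 76 genes was lowest in the adult control groups. Averaged per array on the log2 scale, it was 7.76, 8.26 and 8.50 in control and 8.53, 8.80 and 8.97 in KO at day 7. At day 21 it was 8.09, 8.37, 8.24 and 8.30 in control and 8.64, 8.24, 8.98 and 8.85 in KO. Fetal liver stood at 8.88, 8.78 and 8.77. The lowest day 7 KO array was just above the highest day 7 control array, and at day 21 KO replicate 2 lay among the controls. In order of the group means, fetal liver (8.81 ± 0.061, SD, n = 3) came first, then KO at day 7 (8.76 ± 0.222, n = 3), KO at day 21 (8.68 ± 0.324, n = 4), control at day 21 (8.25 ± 0.117, n = 4) and control at day 7 (8.17 ± 0.376, n = 3). The first 3 of these groups overlapped each other, as did both control groups. Since these are bulk samples, fewer cells of a type and less RNA per cell cannot be told apart.

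Both subunits had this order between KO and control. The large subunit averaged 8.18 ± 0.469 in control and 8.77 ± 0.245 in KO at day 7 (SD, n = 3 each), and 8.24 ± 0.169 and 8.68 ± 0.352 at day 21 (SD, n = 4 each). Small-subunit values were 8.17 ± 0.225 and 8.76 ± 0.204 at day 7, and 8.28 ± 0.0737 and 8.67 ± 0.282 at day 21. In fetal liver the large subunit averaged 8.86 ± 0.0742 and the small subunit 8.72 ± 0.102 (SD, n = 3).

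**Figure D1:**
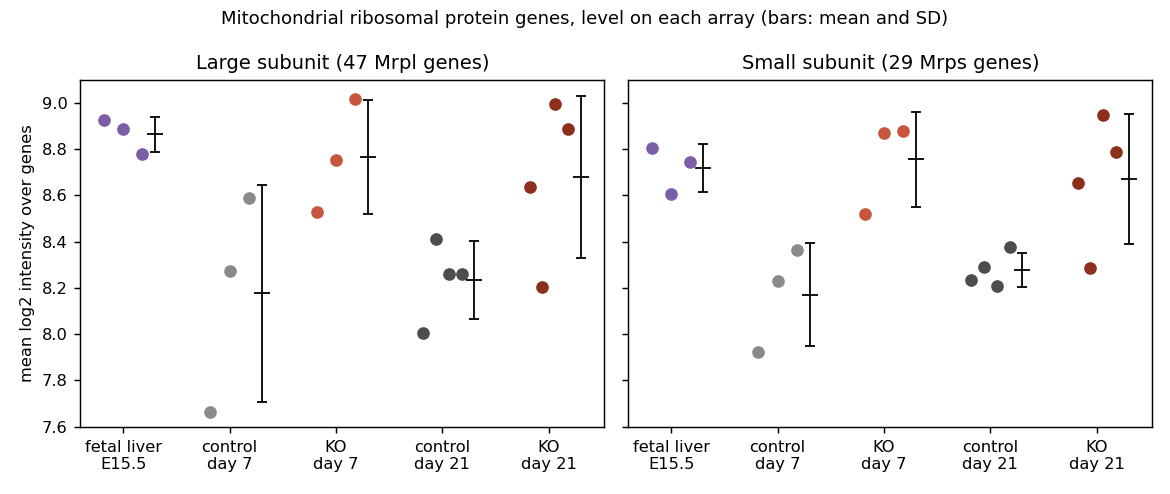
Mean log2 intensity over the 47 Mrpl genes (left) and the 29 Mrps genes (right) on each of the 17 arrays, with 1 point per array, and the mean and SD of each group beside the points. Large-subunit group means were 8.86 in fetal liver, 8.18 and 8.77 in control and KO at day 7, and 8.24 and 8.68 at day 21.

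Gene by gene, a control group had the lowest mean in 59 of the 76 members (77.6%, against 43.6% of all genes tested). Both control groups were the lowest pair in 35 members (46.1%, against 15.2% of all genes). KO exceeded control on both days in 49 members, or 64.5%, against 30.0% of all genes. It was lower on both days in 7 members (9.21%, against 27.1% of all genes). Fetal liver had the highest mean in 28 members (36.8%, against 27.7%) and the lowest in 9 (11.8%, against 25.7%).

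**Figure D2:**
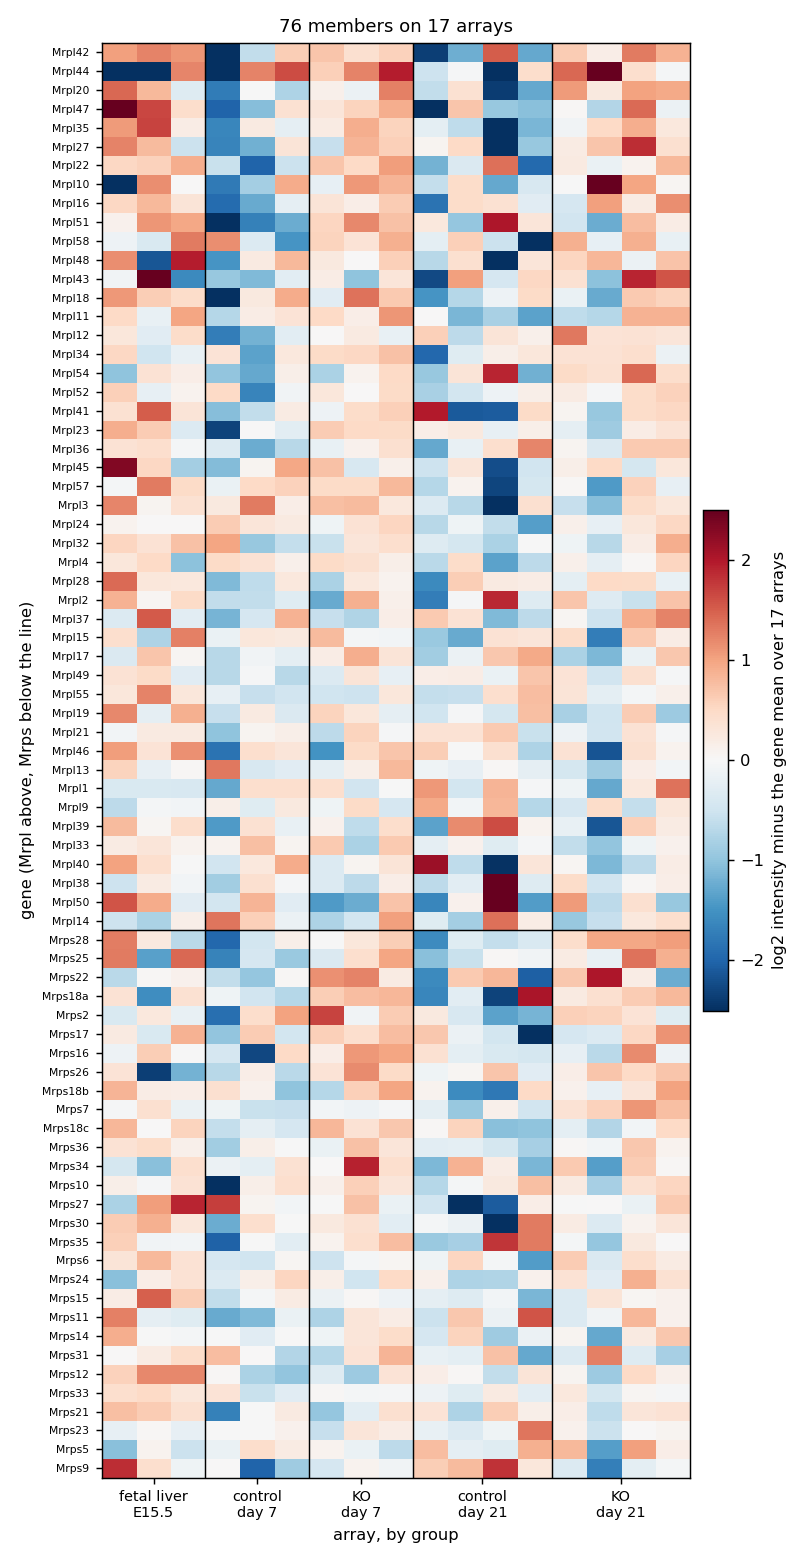
Log2 intensity of each of the 76 members (rows) on each of the 17 arrays (columns, by group), minus that gene's mean over all arrays; rows are ordered within each subunit by the mean KO difference of both days. Control columns were lowest on average, with control replicate 1 at day 7 the lowest array at a member mean of 7.76.

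At day 7, 64 of 76 members were higher in KO than in control and 12 were not, but none passed the test in either direction. The background was the same, as 0.0% of all genes passed at an adjusted p under 0.05 (limma, Benjamini-Hochberg over 16785 genes). The median member difference was 0.45 on the log2 scale, against 0.00 over all genes tested, of which 50.0% were higher. Among genes brighter than the median probe set, which include all 76 members, the median was 0.07 and 55.2% were higher. At an unadjusted p under 0.05 stood 7 members, all higher in KO (9.21%, against 6.72% of all genes in either direction). In 14 members (18.4%) every KO array exceeded every control array, against 7.48% of all genes, and in none was every KO array below every control array, against 6.39%. Markers of other blood cells were also higher on KO arrays, though none passed the test. Of 6 measured erythroid markers 5 were higher, and their mean ranged from 5.46 to 6.44 over control arrays and from 6.68 to 8.29 over KO arrays on the log2 scale. All 6 megakaryocyte markers were higher, with means from 6.38 to 7.14 and from 7.13 to 8.47. Cd48, a marker that the sort excluded, measured between 16 and 18.8 in control and between 60.9 and 283 in KO. HSC markers mostly went the other way, as only 2 of 6 rose in KO and their median difference was −0.35. In 2 of the 6 (33.3%, against 6.39% of all genes) every KO array lay below every control array. The part of all these markers in the result was not tested.

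Mrpl51, a large-subunit protein that occurs only in mitochondria, had the smallest p at day 7. Its intensity was 164, 310 and 426 in control and 1465, 2319 and 1666 in KO. All KO arrays were high and the groups did not overlap. The log2 difference was 2.68 (SE 0.66, 95% interval 1.26 to 4.09, limma adjusted p = 0.390). At day 21 Mrpl51 measured 1211, 516, 4090 and 1240 in control and 715, 423, 1718 and 1135 in KO, so the groups overlapped and the difference was −0.61 (SE 0.57, adjusted p = 0.755). It was −0.068 without control replicate 3, the highest array, and −1.06 without control replicate 2. Both other Mrpl51 probe sets differed far less at day 7, by 0.33 and 0.15. They were also far dimmer, with mean log2 levels of 5.50 and 4.73, against 9.97 for the chosen one.

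Mrpl22, whose bacterial counterpart lines the tunnel through which the new protein leaves the ribosome, measured 178, 65.3 and 181 in control and 426, 372 and 539 in KO at day 7. Every KO array was above every control array, with a log2 difference of 1.78 (SE 0.64, limma adjusted p = 0.634). Mrpl12, the stalk protein that recruits translation factors, measured 177, 258 and 491 in control and 590, 687 and 513 in KO. Its groups did not overlap but came close, with a difference of 1.07 (SE 0.40, adjusted p = 0.635).

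Mrpl23, another protein at the tunnel exit, measured 172, 843 and 712 in control and 1320, 1206 and 1182 in KO. Control replicate 1 was far below the other arrays, and the difference of 1.39 (SE 0.51, limma adjusted p = 0.635) was 0.67 without it. Mrpl16, a large-subunit protein with a bacterial counterpart, measured 180, 284 and 583 in control and 849, 763 and 1058 in KO, with a difference of 1.51 (SE 0.58, adjusted p = 0.665). The 5 lower members with the smallest p were Mrpl14 (−0.66), Mrps5 (−0.41), Mrpl50 (−0.68), Mrps27 (−0.39) and Mrpl24 (−0.12), all with unadjusted p-values above 0.29.

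The starts of 3 of these members without overlap at day 7 are shown by sequence, because each holds letters of a motif that is frequent among the members' promoters. Mrpl16 and Mrpl23, whose groups also did not overlap, gave no such match, and 9 members had no promoter to search. The windows lie directly upstream of the annotated transcript start, from RefSeq on GRCm38.p6, plus strand, 5′ to 3′, and leave out bases inside another annotated gene. Capitals mark a match to CCGGAAG, the core bound by GABPA and other ETS factors, in Mrpl51 and Mrpl22, and to the NRF1 motif on the reverse strand in Mrpl12. The NRF1 motif searched was GCGCA, any base, then GCGC. Mrpl51 is shown at chr6:125192101-125192199, Mrpl22 at chr11:58171414-58171663 and Mrpl12 at chr11:120484387-120484636.
Mrpl51: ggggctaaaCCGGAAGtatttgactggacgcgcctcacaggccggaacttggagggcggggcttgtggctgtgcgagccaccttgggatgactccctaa
Mrpl22: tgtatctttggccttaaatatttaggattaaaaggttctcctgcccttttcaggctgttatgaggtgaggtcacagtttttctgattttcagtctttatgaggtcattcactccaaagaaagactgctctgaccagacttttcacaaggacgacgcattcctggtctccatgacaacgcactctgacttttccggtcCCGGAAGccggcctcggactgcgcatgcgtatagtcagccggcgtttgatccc
Mrpl12: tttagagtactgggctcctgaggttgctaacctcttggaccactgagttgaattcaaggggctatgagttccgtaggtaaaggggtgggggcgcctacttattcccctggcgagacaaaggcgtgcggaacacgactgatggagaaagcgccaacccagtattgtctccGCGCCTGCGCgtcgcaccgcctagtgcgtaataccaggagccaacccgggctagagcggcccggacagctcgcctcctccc

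Of the 76 members, 67 had a promoter in the RefSeq table, with 73 promoters of 300 bases in all (250 before and 50 after the start). CCGGAAG lay on either strand in 34.2% of them, against 8.86% of 32851 promoters of all genes. The NRF1 motif lay in 16.4%, against 4.60%, and AAGATGGCG (YY1) in 11.0%, against 1.40%. CACGTG (E-box) was in 9.59% against 7.15%, CCAAT in 39.7% against 37.4%, and TATAAA in 6.85% against 13.6%. Both strands were searched for each motif, matches that overlap another motif were kept, and a match describes the letters only. The 25 members with CCGGAAG had a median KO difference of 0.67 at day 7 and the 42 without it 0.39, while at day 21 the medians were 0.59 and 0.47. For the NRF1 motif the order was the reverse, with 0.33 in the 12 members that hold it and 0.53 in the 55 others at day 7, and 0.19 and 0.49 at day 21. In fetal liver the medians with and without were 0.80 and 0.67 for CCGGAAG and 0.53 and 0.75 for the NRF1 motif. These differences were not tested.

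Many members share their promoter region with a neighbour read in the opposite direction. Within 500 bases upstream, 22 of 67 members (32.8%) had the start of such a gene, against 10.9% of the 27025 genes with a promoter. Within 1000 bases the count was 25 (37.3%), against 12.3%; this wider limit was chosen after values were seen, since it takes in Mrpl51, whose start lies 614 bases from that of Ncapd2. Between the annotated genes Mrpl51 and Ncapd2 lie 99 bases, so the 614 bases refer to a transcript start inside the annotated Ncapd2 gene. By the gene ends the pair lies within 500 bases. Ncapd2, which encodes a condensin subunit used in mitosis, differed by 2.48 at day 7, beside 2.68 for Mrpl51, and by 0.67 against −0.61 at day 21. In fetal liver against adult control the values were 2.07 and 1.44. This pair was picked after its values were seen and was not tested. Mrpl46 and Mrps11 lie 42 bases from each other and differed by 0.26 and 0.75 at day 7. Mrpl50 and Zfp189, 93 bases apart, went in opposite directions, with −0.68 and 0.96. The sign matched that of the neighbour in 17 of the 25 members at day 7, 15 at day 21 and 20 in fetal liver. Most of both sides were higher, so a match says little about a pair. Members were higher in 19, 16 and 22 of the 25, and neighbours in 19, 18 and 21. The pair of Mrpl46 and Mrps11 is counted from both sides. These matches were not tested.

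At day 21, 54 of 76 members were higher in KO and 22 were not, and none passed the test, against 0.0179% of all genes. The median member difference was 0.46 on the log2 scale, against 0.00 over all genes, of which 50.2% were higher; among brighter genes the median was 0.11 and 57.3% were higher. The arrays of these groups also differed in RNA measures. The log2 ratio of 3′ to 5′ control probe sets was −0.053, 0.20, −0.40 and 0.13 in control and 0.28, 0.19, 0.26 and 0.30 in KO, and 22.4% to 25.2% of control values against 21.7% to 23.3% of KO values lay at the floor. With the floor percentage as a covariate the member median was 0.24 and 46 members were higher, and with the 3′ to 5′ ratio it was 0.41 and 54 were higher. At an unadjusted p under 0.05 stood 8 members, 7 higher and 1 lower (10.5%, against 10.1% of all genes), a share near the background. KO arrays all exceeded control arrays in 4 members (5.26%, against 3.14% of all genes) and all lay below them in 1 (against 2.35%). After centring arrays on their medians, the all-gene median became −0.16 and the member median 0.30, with 49 members higher. Of 6 erythroid markers 5 were higher in KO, with means from 5.84 to 6.99 over control arrays and from 6.22 to 8.17 over KO arrays. Of 6 megakaryocyte markers 5 were higher, with means from 7.00 to 7.97 and from 8.36 to 9.32. Cd48 overlapped, between 18.6 and 658 in control and between 90.3 and 308 in KO. None of the 6 HSC markers rose in KO, and their median difference was −0.32, with overlapping groups in each. The part of the markers named here in the day 21 result was not tested.

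Mrps7, a protein of the small subunit's head, had the smallest p at day 21. Its intensity was 372, 227, 475 and 315 in control and 561, 651, 936 and 737 in KO. Every KO array was above every control array, and the log2 difference was 1.08 (SE 0.23, 95% interval 0.59 to 1.57, limma adjusted p = 0.114). At day 7 Mrps7 measured 408, 296 and 293 in control and 420, 398 and 429 in KO, with overlapping groups and a difference of 0.34 (SE 0.26, adjusted p = 0.892).

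Mrps28, a small-subunit protein, measured 240, 579, 474 and 549 in control and 972, 1398, 1394 and 1471 in KO at day 21. The groups did not overlap, and the log2 difference was 1.57 (SE 0.47, limma adjusted p = 0.280). Mrpl35, a large-subunit protein with a bacterial counterpart, measured 292, 224, 59.4 and 157 in control and 328, 488, 649 and 416 in KO, also without overlap (1.54, SE 0.51, adjusted p = 0.318). In Mrpl24, at the tunnel exit, the values were 362, 540, 380 and 224 in control and 638, 506, 711 and 833 in KO, and KO replicate 2 lay below the highest control (0.88, SE 0.24, adjusted p = 0.244).

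Mrpl20, a large-subunit protein with a bacterial counterpart, measured 185, 372, 54.9 and 118 in control and 594, 339, 571 and 547 in KO at day 21, with KO replicate 2 inside the control range (log2 difference 1.79, SE 0.57, limma adjusted p = 0.315). Against this direction, Mrps9, another protein of the head, measured 474, 534, 1075 and 374 in control and 244, 94.1, 260 and 298 in KO. All KO arrays were below all control arrays, with a difference of −1.46 (SE 0.52, adjusted p = 0.357). Its 3 other probe sets differed by 0.14, −1.15 and −0.04. The other lower members with the smallest p were Mrpl17 (−0.51), Mrpl39 (−0.77), Mrpl51 (−0.61) and Mrpl33 (−0.29), whose groups overlapped.

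**Figure D3:**
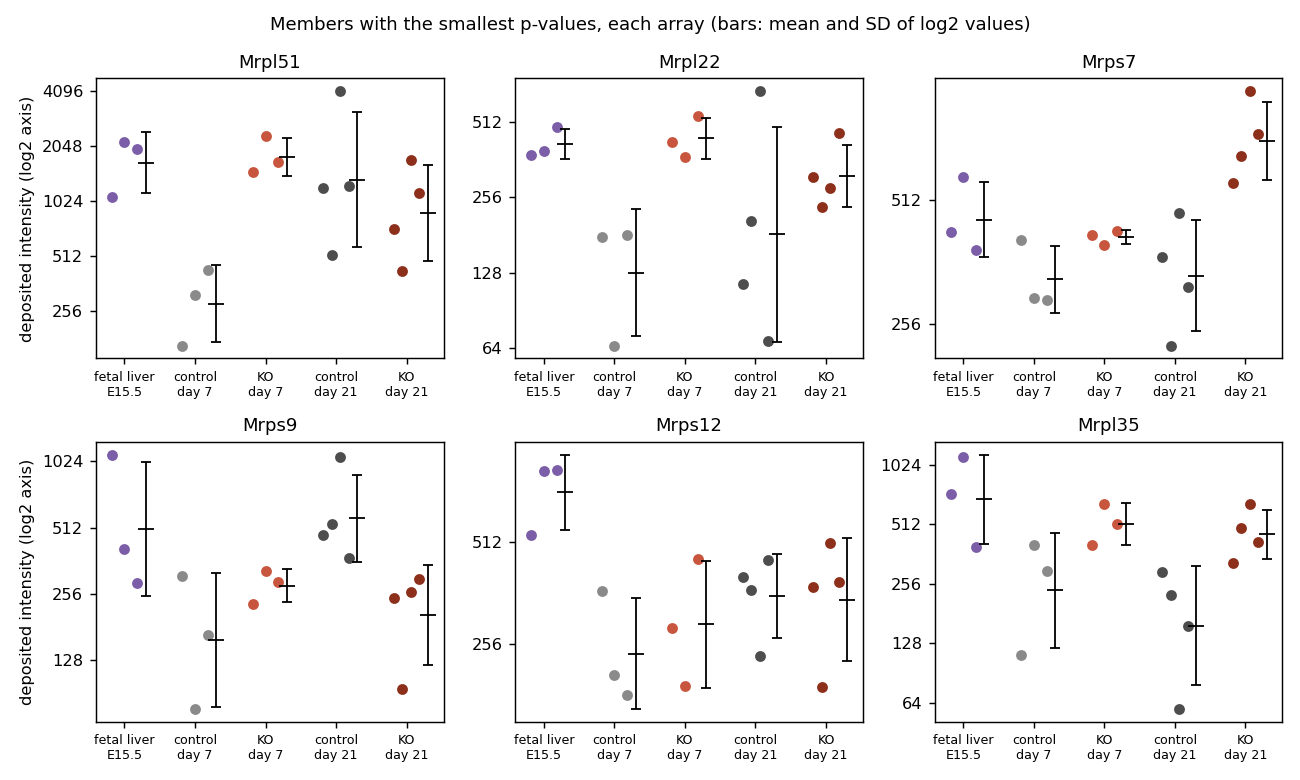
Deposited intensity on a log2 axis of Mrpl51, Mrpl22, Mrps7, Mrps9, Mrps12 and Mrpl35, with 1 point per array, and the mean and SD of log2 values of each group beside the points. Mrpl51 separated KO from control at day 7 (2.68) but not at day 21 (−0.61), whereas Mrps7 separated them at day 21 (1.08) and Mrps12 separated fetal liver from both control groups (1.30).

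Fetal liver HSCs exceeded adult control HSCs in 65 of 76 members and none passed the test, against 3.65% of all genes called (limma). This comparison uses the control arrays of both days, which the KO comparisons also use. The median member difference was 0.65 on the log2 scale, against 0.02 over all genes, of which 52.0% were higher; brighter genes had a median of 0.07 with 54.4% higher. The large subunit's median was 0.75 (41 of 47 higher) and the small subunit's 0.54 (24 of 29 higher). At an unadjusted p under 0.05 stood 15 members, all higher in fetal liver (19.7%, against 16.8% of all genes). Only Mrps12 had every fetal array above every adult control array (1.32% of members, against 3.37% of all genes), and no member had every fetal array below them (against 2.68%).

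Mrps12, the counterpart of the bacterial protein S12 at the decoding site, measured 534, 828 and 832 in fetal liver. It stood at 366, 207 and 181 in control at day 7 and at 404, 369, 235 and 451 at day 21. All fetal arrays were above all adult control arrays, and the log2 difference was 1.30 (SE 0.35, 95% interval 0.55 to 2.04, limma adjusted p = 0.0567). Between KO and control Mrps12 had a difference of 0.29 with SE 0.41 at day 7, and of −0.04 with SE 0.35 at day 21.

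Mrpl35 measured 726, 1118 and 394 in fetal liver and 111, 403 and 295 in control at day 7, so that the lowest fetal array fell just below the highest control (log2 difference 1.83, SE 0.50, limma adjusted p = 0.0606). Mrps15, a small-subunit protein with a bacterial counterpart, measured 568, 1419 and 771 in fetal liver against 327, 480 and 580 in control at day 7 (1.07, SE 0.29, adjusted p = 0.0611). Mrpl47, at the tunnel exit, measured 1072, 546 and 233 in fetal liver against 42.5, 82.1 and 222 at day 7 and 19.6, 278, 88.3 and 82.8 at day 21 (2.59, SE 0.74, adjusted p = 0.0737). It varied widely within groups, and its other probe sets differed by −0.54 and 0.16. Their mean log2 levels were 5.99 and 4.95, against 7.42 for the chosen one. Mrps33, of the head, differed by 0.54 (SE 0.19, adjusted p = 0.151).

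Limma called some of these members under other settings. Mrps12 and Mrpl35 passed the test after median centring (adjusted p = 0.0497 and 0.0441) and when all probe sets of a gene were averaged (0.0449 and 0.0151). Among brighter genes alone Mrpl35 and Mrpl47 passed (0.0430 and 0.0467), where 621 of all 10619 such genes were called. The shares of all genes called under median centring and averaging of probe sets are not given here. Without fetal liver replicate 1 the calls went in both directions, with Mrps15 higher (1.36, adjusted p = 0.0273) and Mrps26 lower in fetal liver (−1.61, adjusted p = 0.0235). The members lower in fetal liver with the smallest p were Mrps26 (−0.91), Mrps5 (−0.72), Mrpl14 (−0.74), Mrpl9 (−0.40) and Mrpl44 (−1.21), the last with 2 of 3 fetal arrays at the floor. Averaging the probe sets of Mrpl9 turned its difference to 0.43.

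Marker lists of several other cell types were higher on the fetal arrays. All 6 endothelial markers were higher and 5 passed the test. Their mean log2 level was 7.81 to 10.5 in fetal liver and 5.46 to 6.38 over the control arrays of both days. All 7 hepatocyte markers were higher and 3 passed, with means from 6.48 to 9.88 and from 5.69 to 6.98. All 6 erythroid markers were higher and 3 passed, with means from 8.29 to 8.77 and from 5.46 to 6.99. All 6 macrophage markers were higher but C1qb alone passed, with means from 6.31 to 7.33 and from 4.42 to 5.04. Adgre1 lay at the floor on all adult arrays. Cd48 was higher in fetal liver by 1.88 (limma adjusted p = 0.303). In the other direction, 5 of 6 HSC markers and 4 of 6 megakaryocyte markers were lower, and Meis1, a transcription factor gene of HSCs, fell (−1.19, adjusted p = 0.0241). The part of these markers in the member differences was not tested.

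**Figure D4:**
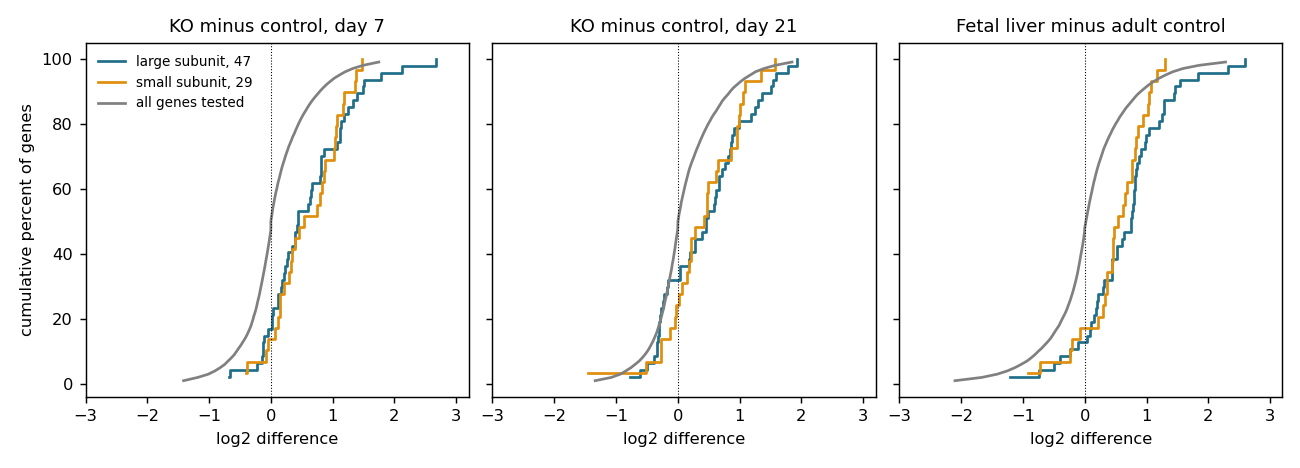
Cumulative percent of genes by log2 difference in 3 comparisons, for the 47 large-subunit genes, the 29 small-subunit genes and all 16785 genes tested. Member curves lie to the right of the all-gene curve over most of the range, with member medians of 0.45, 0.46 and 0.65 against 0.00, 0.00 and 0.02.

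Grouped by role, the 4 measured stalk genes (Mrpl10, Mrpl11, Mrpl12 and Mrpl54) were all higher in KO on both days, with median log2 differences of 0.86 and 0.79. The 6 tunnel-exit genes had medians of 1.10 and 0.81 and 5 and 4 higher members. For the 5 genes of the central protuberance, which contacts the small subunit, the medians were 0.26 and −0.22. The 3 genes at the decoding site and messenger RNA entry (Mrps5, Mrps12 and Mrps24) had medians of −0.07 and −0.04. Among the 6 head genes, all were higher at day 7 (0.58) and 4 at day 21 (0.05). None of these role groups held a called gene.

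Mammals carry 3 paralogues of the bacterial protein S18, Mrps18a, Mrps18b and Mrps18c, each found at a different place in the ribosome. Mrps18a measured 220, 170 and 144 in control and 360, 402 and 419 in KO at day 7, without overlap (log2 difference 1.16, SE 0.84). Mrps18c measured 459, 589 and 515 in control and 1222, 887 and 1097 in KO, again without overlap (1.03, SE 0.41, limma adjusted p = 0.680). Mrps18b overlapped on both days, with differences of 0.46 (SE 0.63) and 1.01 (SE 0.54). At day 21 the difference was 1.06 for Mrps18a (SE 0.72) and 0.22 for Mrps18c (SE 0.35), with overlapping groups. Single arrays moved these values: Mrps18a at day 21 was 0.47 without control replicate 3 and 1.92 without control replicate 4, and Mrps18b at day 7 was 0.033 without control replicate 3 and 0.96 without KO replicate 1.

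Several other members have a particular background. Mrps30, like Mrps18a, carries a small-subunit name but is found in the large subunit in mammals. Both were counted by name in the small-subunit values above. The small-subunit medians were 0.53 at day 7, 0.42 at day 21 and 0.54 in fetal liver with both. They were 0.53, 0.28 and 0.54 without both. The KO differences of Mrps30 were 0.39 (SE 0.73) and 0.47 (SE 0.63), with 0.94 (SE 0.62) in fetal liver. Without control replicate 3, whose intensity was 59.6, the day 21 difference was −0.30. Mrps36 has been assigned to the oxoglutarate dehydrogenase complex rather than the ribosome. At day 21 it measured 609, 617, 541 and 413 in control and 746, 702, 1164 and 778 in KO, without overlap (log2 difference 0.62, SE 0.26, limma adjusted p = 0.441). Mrpl10, of the stalk base, had KO differences of 1.14 (SE 1.00) and 1.36 (SE 0.86), and its neighbour Mrpl11 of 0.65 (SE 0.52) and 0.92 (SE 0.45). The day 7 value of Mrpl10 was 0.54 without control replicate 1 and 1.89 without control replicate 3.

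The 47 measured members with a bacterial counterpart had median log2 differences of 0.46 at day 7, 0.39 at day 21 and 0.69 in fetal liver. In the 29 members found only in mitochondria the medians were 0.44, 0.47 and 0.54.

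Between the control groups the members had no common direction. At day 21 against day 7, 43 of 76 members were higher, with a median log2 difference of 0.06, against 0.00 over all genes, of which 48.2% were higher, as were 45.1% of brighter genes. No member passed the test, against 0.0298% of all genes, while 9 stood at an unadjusted p under 0.05 (11.8%, against 8.05%). Mrpl51 (2.26, SE 0.61, limma adjusted p = 0.378) and Mrps9 (1.84, SE 0.56, adjusted p = 0.433) were higher on every day 21 array, against 2.75% of all genes, and Mrpl24 (−1.09, SE 0.26, adjusted p = 0.310) lower on every one, against 3.38%. Other members with the smallest p were Mrpl12 (1.16), Mrps27 (−1.80) and Mrpl4 (−0.87).

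The KO difference at day 21 minus that at day 7 had a median of −0.11 over the members, with 33 of 76 above 0, against 0.00 and 49.8% of all genes, and 51.9% of brighter genes. None passed the test, against 0.0% of all genes, and 4 members stood at an unadjusted p under 0.05 (5.26%, against 4.52%). The largest differences with the smallest p were Mrpl51 (−3.28, SE 0.87, limma adjusted p = 0.763), Mrps9 (−2.28, SE 0.80) and Mrpl23 (−1.63, SE 0.67) in one direction and Mrpl24 (1.00, SE 0.37), Mrps7 (0.74, SE 0.35) and Mrps27 (1.73, SE 1.01) in the other, the last 5 at an adjusted p of 1.0. Over the 76 members, the KO differences of both days, which share no array, had a Pearson r of 0.29 and a Spearman rho of 0.35; over all genes tested the values were 0.23 and 0.23. Genes are not independent replicates, and the members on an array share its RNA and its scaling.

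Single members varied more between replicates than most genes did. The median within-group SD was 0.77 on the log2 scale for members and 0.54 for all genes tested. Taken in each group alone, the member median was highest in control at day 21 (0.83) and lowest in KO at day 7 (0.45). All genes had the same extremes, at 0.46 and 0.30. Mrpl44 (1.86) and Mrpl42 (1.46) varied most, and Mrps33 (0.27) and Mrps7 (0.31) least. Across the 17 arrays, a member's level correlated with the mean of the others at a median r of 0.37, above 0 in 71 of 76, and highest in Mrps36 (0.81) and Mrpl18 (0.81); Mrpl9 (−0.45) and Mrpl14 (−0.28) ran against the rest. Other probe sets of the same gene followed the chosen one only in part: among 41 members with other measured probe sets, all of them had the same sign as the chosen one in 21 at day 7, 17 at day 21 and 20 in fetal liver. The 78 other probe sets had smaller median differences, 0.21 at day 7 (53 higher), 0.064 at day 21 (45 higher) and 0.21 in fetal liver (50 higher), beside 0.45, 0.46 and 0.65 for the chosen ones. By the rule of choice, each of them was dimmer than the chosen probe set of its gene.

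The genes around the mitochondrial ribosome were set beside the members, from lists chosen with earlier results of these data known. Nuclear-encoded respiratory chain genes, whose products join the proteins that the mitochondrial ribosome makes, were higher in KO in 66 of 70 at day 7 (median log2 difference 0.55) and 48 of 70 at day 21 (0.16). In fetal liver 68 of 70 were higher (0.52) and 2 passed the test, Ndufab1 (1.48, limma adjusted p = 0.00462) and Atp5o (1.28, adjusted p = 0.0114). Of all genes tested, 3.65% passed in that comparison. Cytosolic ribosomal protein genes, 49 in number, had medians of 0.07, 0.01 and 0.07 in the same comparisons and none was called. They were far brighter, with group means from 11.4 to 11.6 on the log2 scale, against 8.17 to 8.81 for members. The part of brightness in these differences was not tested.

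Factors of mitochondrial translation (13 measured) had medians of 0.63, 0.38 and 0.65 in KO at day 7, KO at day 21 and fetal liver, with Mtif3, an initiation factor, at 0.88 and 1.02 on the KO days. Genes for ribosome assembly (20) stood at 0.11, 0.12 and 0.07, and mitochondrial tRNA synthetases (20) at 0.08, 0.14 and 0.12. Mitochondrial DNA expression genes (18) had medians of 0.59, 0.38 and 0.26. The 4 measured mitoribosome proteins with other symbols, such as Dap3 and Ptcd3, stood at 0.39, −0.03 and 0.95. No gene of these lists passed the test in any of the 3 comparisons. Of 12 biogenesis regulators, Mycn, a transcription factor of the Myc family, rose in fetal liver (1.47, adjusted p = 0.0458), and no other passed.

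Across the 17 arrays the member mean moved with the respiratory chain mean (Pearson r 0.96, Spearman rho 0.96; r 0.94 without the 2 arrays farthest from the median). With 7 proliferation genes r was 0.87 and rho 0.83, and with cytosolic ribosomal protein genes 0.65 and 0.63. The mean over all genes tested gave 0.75, erythroid markers 0.66, HSC markers −0.54 and the percentage of floor values −0.58. These are descriptions over arrays of 5 groups, which share the group differences and each array's scaling. All 7 proliferation genes were higher in KO at both days (medians 1.68 and 0.76) and in fetal liver (2.07). There 5 passed the test, among them Plk1 (2.60) and Mki67 (1.22). Their part in the member differences was not tested.

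**Figure D5:**
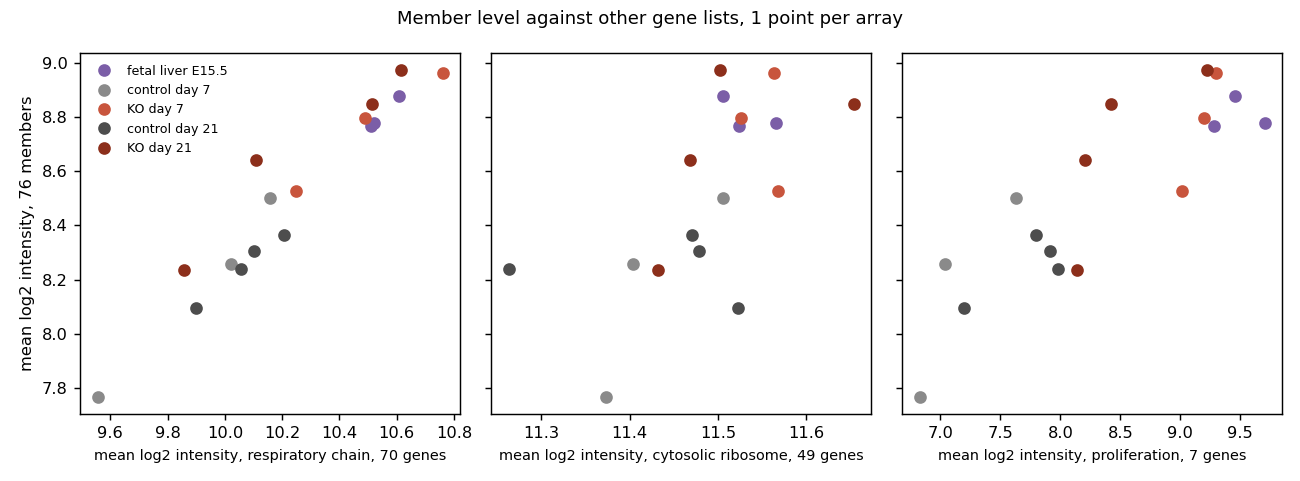
Mean log2 intensity of the 76 members on each array against the mean of 70 respiratory chain genes, 49 cytosolic ribosomal protein genes and 7 proliferation genes, with 1 point per array coloured by group. The points lie closest to a line for the respiratory chain (r 0.96) and are more scattered for the cytosolic ribosome (r 0.65).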

How the data were processed

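RNA of sorted HSCs was amplified and hybridized to 17 arrays, per the labels' protocols. The authors deposited 1 intensity per probe set on a linear scale for 45101 probe sets; RMA is named in the submitters' processing notes, without role or version, and the sources used here do not give any scaling after it. Since log2 values had been assumed in planning, log2 of the deposited intensity was taken without a pseudocount (floor 4). Gene names came from the platform table (34958 probe sets with 1 gene, 932 with several), and symbols of all 76 members matched the RefSeq table of GRCm38.p6. Arrays give no count depth, and their number limits the precision.

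For 16785 genes above the floor on any array, limma 3.58.1 in R 4.3.3 estimated 1 mean for each of the 5 groups from the 17 arrays (lmFit, eBayes, residual df 12, prior df 1.5). The script was run on simulated data with changes far larger than the member medians. That run does not show whether differences as small as those could be called. Calls needed an adjusted p under 0.05 (Benjamini-Hochberg, all genes); fetal liver was compared with the mean of both control groups. Bright genes are those whose highest group mean exceeded the median over probe sets.

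Members and lists were chosen with earlier results of these data known. Named were 9 members with a particular background, called members, or else the 5 (3 for control days and for the difference of KO effects) with the smallest p per direction, and of other lists up to 3 called genes or the 1 with the smallest p; further names, the 1000-base limit for neighbours and the Mrpl51 and Ncapd2 pair were chosen after values were seen. Alternatives were median centring, quantile normalization, bright genes only, mean of probe sets, other probe sets, covariates, a replicate block and leaving out each array; the 3' to 5' covariate and probe choice by linear mean were added after the data were seen. Promoter searches used Python 3.11.15.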

Additional observations from a re-analysis of the deposited data

Results flagged for a closer look

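In KO at day 21, 3 members each had 1 array that stood well apart from the other 3. Mrpl12 on replicate 1 was the highest, at 10.5 on the log2 scale, with the others between 9.51 and 9.55. Mrpl20 on replicate 2 was the lowest, at 8.40, with the others between 9.10 and 9.21, and Mrps28 on replicate 1 was the lowest, at 9.92, with the others between 10.4 and 10.5. In all, 72 groups of 4 arrays were looked at for the 33 named members and the means over members, and chance alone marks about 1 in 20.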

How the results depend on the processing

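Medians over the members in the KO and fetal liver comparisons kept their sign under every setting run. Leaving out 1 array at a time they ranged from 0.38 to 0.66 for KO at day 7, from 0.35 to 0.62 at day 21 and from 0.53 to 0.69 for fetal liver. Under the other settings they ranged from 0.38 to 0.48, from 0.24 to 0.46 and from 0.54 to 0.65. With the floor share as covariate the day 21 median moved most, to 0.24, with the small subunit at 0.20; without control replicate 1 of day 7, 53 members were higher in the day 7 KO. Median centring moved the all-gene median of the control days to 0.16, with members at 0.21. In fetal liver, 2 members were called under each of median centring, bright genes only and the mean of probe sets. With bright genes only, 621 of all 10619 such genes were called. When 1 array was left out, 0 to 2 members were called. Without control replicate 1 of day 7 there were 2, both higher. Without fetal liver replicate 1 there were also 2, of which Mrps26 was lower.

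Replicate numbers did not pair the samples: over 31 same-numbered pairs the correlation of deviations ranged from −0.0358 to 0.0784. With the replicate number as a block, 0 members were called, the medians were 0.45, 0.46, 0.59, 0.04 and −0.11 in the order of the report's comparisons, and 524 genes in place of 613 were called in fetal liver.

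Some differences changed sign, and the cause was not tested. With the floor share as covariate, Mrps18c and Mrps30 were at −0.15 and −0.15 for KO at day 21; for the control days Mrps18a was at 0.059, Mrps30 at 0.43 and Mrps36 at 0.063; and for the difference of KO effects Mrpl10 was at −0.11, Mrps30 at −0.16 and Mrps36 at −0.017. With the 3' to 5' ratio as covariate, Mrps30 was at −0.52 for KO at day 21, Mrps18a at −0.081 in fetal liver, Mrps18a at 0.51 and Mrps30 at 0.95 for the control days, and Mrpl10 at −0.72 and Mrps30 at −1.01 for the difference of KO effects; the control-day medians became −0.047, −0.037 for the large and −0.058 for the small subunit. Median centring gave Mrps18a 0.046 and Mrps30 0.019 for the control days and Mrps30 −0.012 for the difference of KO effects. Quantile normalization gave Mrps18a 0.047 for the control days, and the mean of probe sets gave Mrpl9 0.43 in fetal liver.

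Leaving out 1 array also turned signs. For KO at day 7 the ranges were −0.71 to 0.19 for Mrps27, −0.26 to 0.059 for Mrpl24, −0.032 to 0.59 for Mrps12 and −0.090 to 0.74 for Mrps30. At day 21 they were −0.24 to 0.25 for Mrps12, −0.0096 to 0.53 for Mrps18c and −0.30 to 1.04 for Mrps30, and in fetal liver −0.9985 to 1.09 for Mrpl10 and −0.11 to 0.86 for Mrps18a. Control-day ranges were −0.49 to 0.85 for Mrpl10, −0.97 to 0.48 for Mrps18a, −0.26 to 0.28 for Mrps18c and −0.70 to 0.64 for Mrps30, with medians from −0.10 to 0.22, −0.062 to 0.41 for the large and −0.20 to 0.10 for the small subunit. For the difference of KO effects they were −0.53 to 0.82 for Mrpl10, −0.70 to 0.76 for Mrps18a, −0.69 to 0.65 for Mrps30 and −0.14 to 0.41 for Mrps36, with medians from −0.25 to 0.032 and −0.34 to 0.13 for the large subunit.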
